A study of Mus musculus with 4 samples.

Results

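Meg3, Rian and Mirg are 3 non-coding RNAs of the imprinted Dlk1-Dio3 domain on mouse chromosome 12, and their listed m6A peaks are described here library by library. N6-methyladenosine (m6A) is a methyl mark on adenosines of RNA, and the peaks come from RNA fragments pulled down with an antibody against it (MeRIP-seq). The members are the peaks whose listed gene symbol is Meg3, Rian or Mirg: 15 of 46417 peaks in the 4 peak lists, from 3 of 9949 genes with a peak. The genes were selected on the presence of their peaks in the 4 lists, with that pattern already known, so the pattern is given as a description and carries no test.

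The lists cover 2 Mettl5-/- libraries, called knockout 1 and knockout 2, and 2 wild-type libraries, called wild type 1 and wild type 2. All 4 are labelled as embryonic stem cells of strain C57BL/6N, and the labels leave unsaid whether each library is its own culture or clone, so the spread between libraries may be technical. Mettl5 encodes an m6A methyltransferase of the small ribosomal subunit's RNA. It had no listed peak in any library, so the lists cannot check the genotype. The lists held 12699 and 10821 peaks in knockout 1 and 2, against 11696 and 11201 in wild type 1 and 2. Of 10 stem cell markers, 7 had a peak in all 4 libraries, Pou5f1, Sox2, Klf4 and Esrrb among them, and Nanog, Zfp42 and Dppa5a had none listed. In at least 1 library, peaks were also listed for 4 of 5 neural markers, 3 of 5 of primitive endoderm and trophoblast and 2 of 5 of feeder fibroblasts. In all 4 libraries the counts were 2, 1 and 2 in the same order. Read depth and RNA levels were not analysed here, so an unlisted peak cannot be told apart from a transcript that was scarce, and in such bulk samples fewer cells with an RNA cannot be told apart from less RNA per cell.

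In the Dlk1-Dio3 domain the maternal chromosome is the source of the long non-coding RNAs, and the paternal chromosome of the protein-coding genes Dlk1, Rtl1 and Dio3. Meg3 (also called Gtl2) is the first RNA of the maternal series, Rian carries a tandem array of C/D box small nucleolar RNAs (snoRNAs, guides of RNA modification), and Mirg carries a large group of microRNAs. The maternal RNAs run in the same direction along the chromosome and are commonly viewed as depending on the Meg3 promoter and on the imprinted control region upstream of it. In pluripotent stem cells the activity of this domain is known to differ between lines and clones.

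Since the 3 RNAs are viewed as one transcribed series, the RefSeq promoter window of Meg3 is printed here (GRCm38.p6, the assembly of mm10, plus strand, chr12:109540746-109541045, from 250 bases before the start to 50 after it). Capitals mark matches, on either strand, to 3 promoter motifs: TGACGTCA, the cAMP response element, TATAAA, the TATA box, and CCAAT.

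Meg3 promoter: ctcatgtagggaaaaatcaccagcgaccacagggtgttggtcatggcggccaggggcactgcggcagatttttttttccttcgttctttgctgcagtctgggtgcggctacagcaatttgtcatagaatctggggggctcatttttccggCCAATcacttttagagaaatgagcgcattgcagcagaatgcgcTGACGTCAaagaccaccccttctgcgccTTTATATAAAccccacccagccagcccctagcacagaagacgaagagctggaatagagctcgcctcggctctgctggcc

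The cAMP response element begins 57 bases before the start, and TGACGTCA is held by 1.79% of all 32851 RefSeq promoter windows of this length. TATAAA was matched 25 bases before the start and, on the opposite strand with an overlap of the same letters, 29 bases before it; 13.6% of windows hold it. CCAAT begins 100 bases before the start, and 37.4% of windows hold it. The windows of Rian and of a second Meg3 start at position 109545398 hold none of the 3 motifs, and that of Mirg holds CCAAT alone, 184 bases before its RefSeq start. No listed peak of a member touched any of these windows, so they are shown for orientation only.

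RefSeq places 57 microRNA hairpins between the Meg3 start and the Mirg end, 5.67% of the 1005 mouse hairpins in the table used, together with 19 snoRNA genes. None of the 57 hairpins overlapped a member peak. The mature microRNAs of Mir770 and Mir673, which lie among and just past the Meg3 peaks, and of Mir382 and Mir134, which lie on either side of the shared Mirg peak, are printed 5′ to 3′ with the seed, bases 2 to 8, in capitals (RefSeq, GRCm38.p6, all plus strand of chromosome 12).

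mmu-miR-770-5p: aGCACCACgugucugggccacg
mmu-miR-770-3p: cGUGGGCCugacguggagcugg
mmu-miR-673-5p: cUCACAGCucugguccuuggag
mmu-miR-673-3p: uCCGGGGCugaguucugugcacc
mmu-miR-382-5p: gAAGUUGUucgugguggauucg
mmu-miR-382-3p: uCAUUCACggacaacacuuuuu
mmu-miR-134-5p: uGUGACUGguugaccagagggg
mmu-miR-134-3p: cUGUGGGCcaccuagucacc

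No seed recurs among these 8. Of all mature mouse microRNAs in the table, mmu-miR-6985-3p shares the seed of miR-673-5p and mmu-miR-3620-5p that of miR-134-3p, while the other 6 seeds stand alone. Mir770 lies inside the Meg3 gene and Mir673 just past its end.

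Knockout 1 listed no peak of Meg3, Rian or Mirg, while each of the other 3 libraries listed at least 1 peak of all 3 genes. Knockout 1 and 2 had 0 and 8 member peaks, against 4 and 3 in wild type 1 and 2. The knockout mean was 4 ± 5.66 peaks and the wild-type mean 3.5 ± 0.707 (SD, n = 2 each), so one knockout count was below and the other above both wild-type counts. With 2 libraries against 2 the smallest two-sided p of an exact permutation test is 0.333, and none was run. Presence thus differed between the 2 knockout libraries, a pattern known when the genes were picked. It follows that 0 of the 3 genes were listed in exactly the pair of wild-type libraries, where 1.56% of all genes with a peak were. Likewise 0 of 3 were listed in exactly the pair of knockout libraries, where 2.27% were. Also 0 of 3 had a peak in all 4 libraries, against 57.1% of all genes. All 3 genes were missing from knockout 1 alone, as were 2.67% of all genes with a peak. Among the 5949 genes with a peak in the other 3 libraries, 266 (4.47%) had none in knockout 1. The members were picked with this contrast in view, and nothing is read from these shares.

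**Figure D1:**
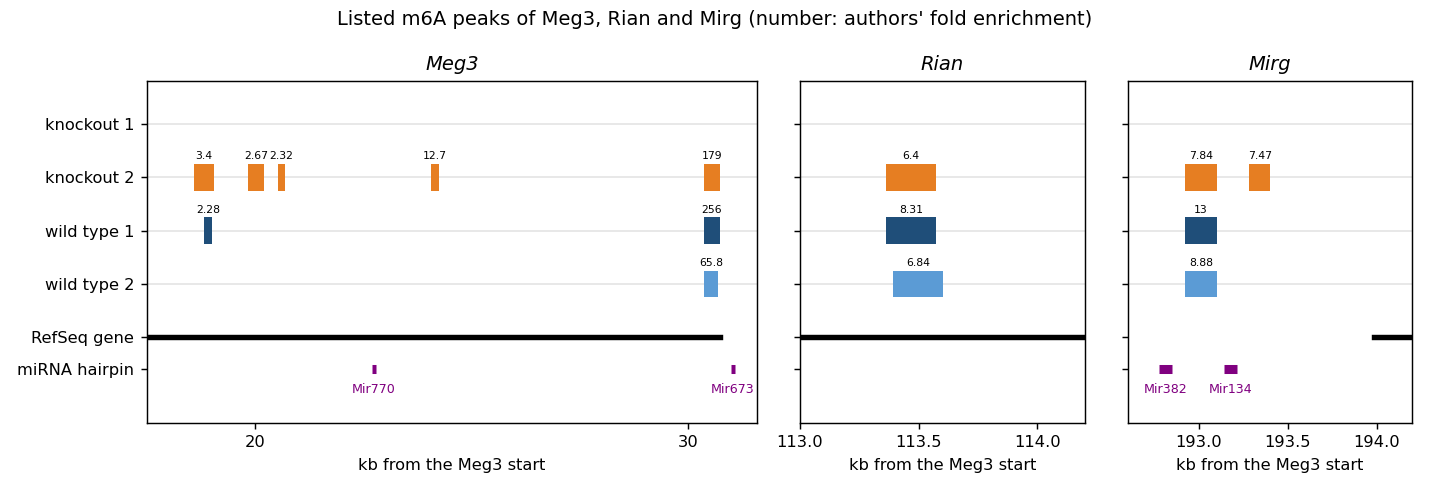
Listed m6A peaks of Meg3 (left), Rian (middle) and Mirg (right) by distance in kb from the RefSeq start of Meg3, with 1 row per library, knockouts on top, and the authors' fold enrichment above each peak; black lines are the RefSeq genes and purple blocks microRNA hairpins. The row of knockout 1 is empty, 3 positions recur in the other 3 libraries, and the Mirg peaks lie left of the RefSeq Mirg start.

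Knockout 1 held the most peaks of the 4 lists. It had 238 peaks with an adjusted p-value of 0.05 or more, against 24 in knockout 2, 22 in wild type 1 and 25 in wild type 2. The Mirg peak of wild type 2 had a p-value of 0.0081, and 1268 peaks of knockout 1 had a p-value that high or higher. Such peaks numbered 463 in knockout 2, 963 in wild type 1 and 802 in wild type 2. The median fold of the whole list was 19.2 in knockout 1 and 24.9 in knockout 2, against 22.4 and 26.6 in wild type 1 and 2. These values do not measure read depth or RNA level, and why the member peaks were unlisted was not tested. By biotype, 209 of the 8338 genes with a peak in knockout 1 were listed as lincRNA, and 154 of 7281 in knockout 2. The wild-type counts were 169 of 7771 in wild type 1 and 171 of 7509 in wild type 2. Of 120 lincRNA genes with a peak in the 3 other libraries, 6 had none in knockout 1. Meg3 and Mirg were among them, as was Gm26906, whose peak lay opposite a Meg3 peak. Of 52 processed transcripts, the listed biotype of Rian, 5 had none. Over all genes with a peak in the 3 other libraries the count was 266 of 5949 (4.47%).

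The 15 peaks fell into 8 regions, joined wherever exon blocks overlapped by at least 1 bp. Of these, 3 regions were found in knockout 2 and both wild-type libraries, 1 in knockout 2 and wild type 1, and 4 in knockout 2 alone. Each of the 3 genes had exactly 1 of the regions found in 3 libraries. Over all 15487 regions, 466 (3.01%) were found in these 3 libraries and not in knockout 1. All 15 peaks were of the listed class exon and were a single exon block, as were 89.0% and 89.7% of all peaks in knockout 1 and 2, against 89.0% and 89.3% in wild type 1 and 2. They were between 120 and 481 bp wide with a median of 211 bp, whereas the median over whole lists was 357 bp in knockout 1, 360 bp in knockout 2, 360 bp in wild type 1 and 361 bp in wild type 2.

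Strength is given below as the authors' p-value and fold enrichment of each peak and as its percentile within its own list, 100 being the strongest; the background of the fold is not given in the sources used here. Percentiles rank peaks within a list and do not compare the level of the mark between libraries.

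Meg3 (ENSMUSG00000021268) encodes a long non-coding RNA kept largely in the nucleus, and RefSeq places it at positions 109540996 to 109571729 of chromosome 12. It had 0 and 5 peaks in knockout 1 and 2, against 2 and 1 in wild type 1 and 2. Its strongest peak lay at the very 3′ end of the gene. In knockout 2 that peak covered positions 109571366 to 109571726, with a p-value of 1.6e-56 and a fold of 179. In wild type 1 it covered the same positions, with a p-value of 6.3e-82 and a fold of 256, and in wild type 2 positions 109571366 to 109571696, with a p-value of 1.6e-20 and a fold of 65.8. The percentile of its p-value was 72.0 in knockout 2, against 80.2 in wild type 1 and 56.9 in wild type 2. It ranked 3027 of 10821, 2315 of 11696 and 4822 of 11201 in the same order, so in each of these lists it was in the stronger part but far from the top.

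The peak nearly reached the end of the gene: it stopped 3 bases before the RefSeq end of Meg3 in knockout 2 and wild type 1, and 33 bases before it in wild type 2. Such a place was uncommon for lincRNAs. The best peak came within 50 bases of the RefSeq end in 6 of 86 other lincRNA genes matched to RefSeq in knockout 2 (6.98%), 6 of 91 in wild type 1 (6.59%) and 6 of 100 in wild type 2 (6.00%). Mir673 begins 263 bases past the peak in knockout 2 and wild type 1, so the peak lies just before the microRNA whose mature forms are printed above.

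The gene of this peak is uncertain, because each list that held it gave the same place on the opposite strand as well. The twin peak was assigned to Gm26906, a lincRNA, at positions 109571364 to 109571723 in knockout 2 and wild type 1. Its fold was 181 in knockout 2, against 260 in wild type 1 and 67.3 in wild type 2, close to the Meg3 values of 179, 256 and 65.8. These were the only 3 of the 15 member peaks with a listed peak on the opposite strand. No source used here names the libraries as stranded. Rtl1, a retrotransposon-derived gene known to run antisense here, spans positions 109564900 to 109604418 in RefSeq and so covers 4 of the member peaks, all of Meg3, but it had no listed peak of its own.

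The other Meg3 peaks lay further inside the gene, between positions 109559577 and 109565247, and had lower folds. A region at 109559577 to 109560057 was found in knockout 2, as a peak of 481 bp with a fold of 3.4 and a p-value of 6.5e-09, and in wild type 1, as a peak of 181 bp with a fold of 2.28 and a p-value of 0.00072. The wild type 1 peak lay wholly inside the knockout 2 peak. Knockout 2 alone had 3 more: positions 109560837 to 109561197 (fold 2.67), 109561527 to 109561677 (fold 2.32) and 109565067 to 109565247 (fold 12.7). Mir770 lies between the second and the third of these, 2014 bases past the second and 1281 bases before the third.

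The percentiles by p-value and by fold differed for most of the Meg3 peaks. The knockout 2 peak of 481 bp stood at percentile 40.8 by p-value and 3.36 by fold, and its wild type 1 counterpart at 25.0 and 0.761. The peaks of fold 2.67 and 2.32 in knockout 2 stood at 22.1 and 21.9 by p-value and at 1.70 and 1.13 by fold, while that of fold 12.7 stood close together, at 35.4 by p-value and 32.7 by fold. By contrast the 3′ peak stood at a higher percentile by fold than by p-value: 85.9 by fold in knockout 2, against 88.2 in wild type 1 and 67.2 in wild type 2.

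**Figure D2:**
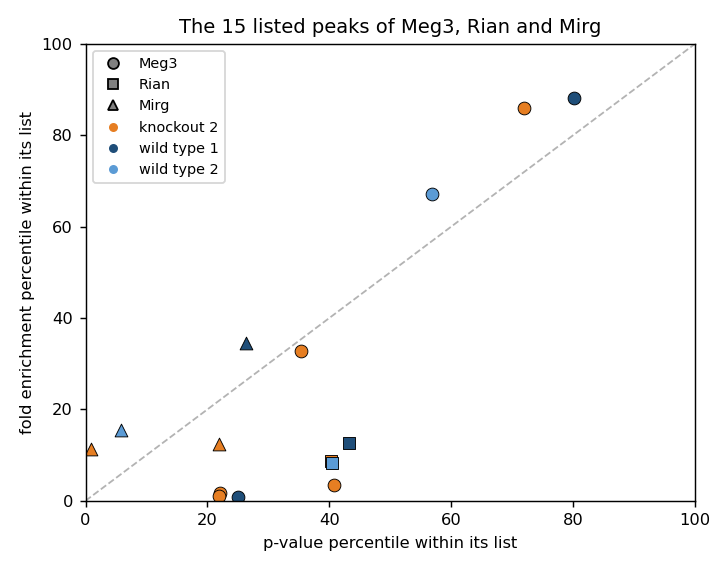
Percentile of the authors' fold enrichment (vertical) against percentile of the p-value (horizontal), each within its own list, for the 15 peaks; colour gives the library, shape the gene, and the dashed line marks equal percentiles. The 3 Meg3 peaks at the 3′ end lie above the line at top right, the 3 Rian peaks lie together below it, and knockout 1 has no point.

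Rian (ENSMUSG00000097451), listed as a processed transcript, is the host RNA of the snoRNA array and spans positions 109603945 to 109661716 in RefSeq. It had 1 peak in knockout 2 and none in knockout 1, against 1 in each wild-type library. In knockout 2 it covered positions 109654358 to 109654568, with a fold of 6.4 and a p-value of 8.3e-09. In wild type 1 it covered the same positions, with a fold of 8.31 and a p-value of 1.2e-07, and in wild type 2 positions 109654388 to 109654598, with a fold of 6.84 and a p-value of 2.5e-08. The wild type 2 peak was thus the same 211 bp window moved by 30 bases, and 181 bases were common to the 3 libraries.

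Of the 3 genes Rian varied least in rank between the libraries that listed it: its p-value stood at percentile 40.3 in knockout 2, against 43.3 in wild type 1 and 40.4 in wild type 2. By fold it ranked far lower, at 8.72 in knockout 2, 12.7 in wild type 1 and 8.31 in wild type 2. The peak lay between 2 snoRNA genes of the array and overlapped neither. The downstream one, AF357355, begins 58 bases past the peak in knockout 2 and wild type 1 and 28 bases past it in wild type 2; the upstream one, LOC115488061, ends 472 bases before it in knockout 2 and wild type 1 and 502 bases before it in wild type 2.

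Mirg (ENSMUSG00000097391), the microRNA-containing gene at the far end of the series, had 0 and 2 peaks in knockout 1 and 2, against 1 in each wild-type library. The shared peak had the same borders in the 3 libraries, positions 109733919 to 109734098. Its fold was 7.84 in knockout 2, against 13 in wild type 1 and 8.88 in wild type 2, and its p-value 0.00044 in knockout 2, against 0.00049 in wild type 1 and 0.0081 in wild type 2. It was among the weaker peaks of each list, at percentile 21.9 in knockout 2, against 26.4 in wild type 1 and 5.80 in wild type 2. Knockout 2 had another peak at 109734278 to 109734397 with a fold of 7.47 and a p-value of 0.02, which at percentile 0.878 was near the end of its list.

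The Mirg peaks sat between microRNAs. The shared one begins 72 bases past the Mir382 hairpin and stops 40 bases before the Mir134 hairpin, and the knockout 2 peak begins 68 bases past Mir134, with Mir668 following 334 bases further on. All 4 Mirg peaks lay outside the RefSeq span of Mirg, 109734981 to 109749458, which starts after them; they belong to Mirg by the symbol the lists give. Taken by RefSeq span in place of the listed symbol, Mirg had no peak in any library.

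The order of the 3 genes by best p-value percentile was the same in the 3 libraries that listed them: Meg3, then Rian, then Mirg. In knockout 2 the values were 72.0, 40.3 and 21.9, against 80.2, 43.3 and 26.4 in wild type 1 and 56.9, 40.4 and 5.80 in wild type 2. With the 3′ peak of Meg3 counted, it follows the order of the genes along the chromosome. By fold, also with that peak, the order was Meg3, Mirg, Rian in the same 3 libraries. The first place of Meg3 by p-value rests on the 3′ peak, whose gene is uncertain. Its best other peak stood at 40.8 in knockout 2 and at 25.0 in wild type 1, there below Rian and Mirg. Wild type 2 listed no other Meg3 peak, so nothing is read from the order.

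Along chromosome 12 the empty stretch of knockout 1 was bounded by listed genes on both sides. Between the last peak of Wdr25 and the first of Dio3, about 1252 kb apart in each list, knockout 1 had 0 peaks and knockout 2 had 9, against 5 in wild type 1 and 4 in wild type 2. Apart from the members, the peaks there were those of Gm26906 opposite Meg3. Dlk1, the paternally expressed Notch-ligand-like gene of the domain, had no listed peak in any library. Dio3, the deiodinase gene at the other end of the domain, had 1 peak in each knockout library, against 4 and 1 in wild type 1 and 2; its best percentile was 0.189 in knockout 1 and 15.9 in knockout 2, against 26.4 in wild type 1 and 21.1 in wild type 2. The knockout 1 value lay near the very end of its list. Percentiles do not compare libraries, and a link between Dio3 and the member peaks was not tested.

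Of the 10 other genes with a peak within 1 Mb of the member peaks, 7 had peaks in all 4 libraries. Over all genes with a peak the share was 57.1%, and with only 10 genes nothing is read from the count. The 7 included Yy1, a transcription factor gene, at percentiles of 93.5 and 89.9 in knockout 1 and 2, against 76.5 and 92.5 in wild type 1 and 2. Dync1h1, the dynein heavy chain gene, stood at 97.4 and 96.0 in knockout 1 and 2, against 99.4 and 96.0 in wild type 1 and 2. Missing from knockout 1 alone, besides the members, were Gm26906 and Evl, a gene with weak peaks elsewhere (percentile 9.03 in knockout 2, against 2.94 in wild type 1 and 25.2 in wild type 2).

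**Figure D3:**
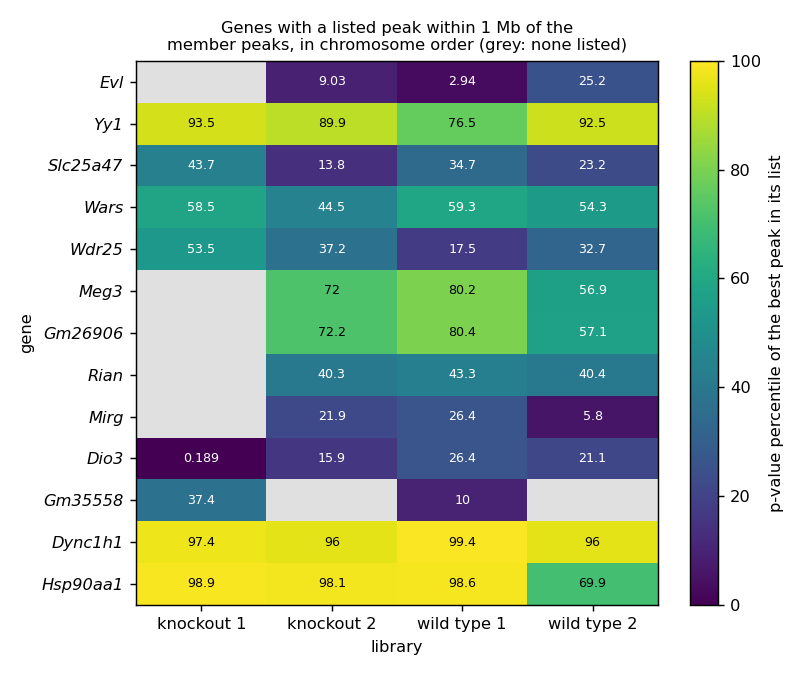
Percentile of the best peak by p-value, within its list, for the 13 genes with a listed peak within 1 Mb of the member peaks, in chromosome order from top to bottom, with libraries as columns and grey where no peak is listed. The 4 grey cells in a row in the column of knockout 1 are Meg3, Gm26906, Rian and Mirg; Evl is the other grey cell of that column.

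Meg3, Gm26906, Rian and Mirg follow each other among genes with a peak, and this made 1 run of 4 neighbours missing from knockout 1 alone. No other run missing from knockout 1 alone exceeded 2 genes, and 7 had 2. For the other libraries the longest such run was 3 genes for knockout 2, against 2 for wild type 1 and 3 for wild type 2. Gm26906 shares its place with the Meg3 peak, so 3 of the 4 neighbours rest on separate peaks. These 3 are the members, picked with their absence from knockout 1 known. The run therefore restates that choice, and nothing is read from its length.

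Genes missing from knockout 1 included strong ones. The shares below lie near the 4.47% found over all 5949 genes with a peak in the other 3 libraries. Besides the members, 1784 genes had a best percentile at least as high as that of Meg3 in each of the 3 other libraries, and 75 of them (4.20%) had no peak in knockout 1. For Rian the same count was 148 of 3996 (3.70%), and for Mirg 200 of 5093 (3.93%). Among the 266 genes missing from knockout 1 alone, Meg3 was 104th by mean percentile over the 3 lists (69.7), Rian 182nd (41.3) and Mirg 242nd (18.0), where the median was 56.9.

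Other imprinted genes gave a background. Of 65 such genes besides the members, 38 had a peak in some library. Of the 38, 23 (60.5%) had one in all 4, near the 57.1% of all genes with a peak. Of the 23 with a peak in knockout 2 and both wild-type libraries, 0 were missing from knockout 1. Over all genes that share was 4.47%, so few or none would be missing among 23, and nothing is read from the 0. Missing from knockout 2 alone was Magel2, against H13 missing from wild type 1 alone and Trappc9 from wild type 2 alone. Of the 38, 0 were listed in exactly the pair of knockout libraries and 2 in exactly the wild-type pair, Zim1 and Nap1l5, with percentiles of at most 18.8. Over all genes with a peak these shares were 2.27% for the knockout pair and 1.56% for the wild-type pair.

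Peg10 and Xist ranked above Meg3 in every library that listed Meg3, as did further imprinted genes, among them Zrsr1, Zdbf2, Jade1 and Tssc4. Peg10, a paternally expressed retrotransposon-derived gene, stood at 98.3 and 96.5 in knockout 1 and 2, against 97.3 and 99.1 in wild type 1 and 2, and Xist, the RNA of X inactivation, at 99.5 and 97.5, against 99.4 and 96.0. Kcnq1ot1, an imprinted non-coding RNA of another domain, had 10 and 8 peaks in knockout 1 and 2, against 9 and 4 in wild type 1 and 2, at percentiles of 78.5 and 76.6, against 79.7 and 75.1. Peg13, a further imprinted non-coding RNA, stood at 78.0 and 69.7, against 74.2 and 74.9. Nespas, an imprinted antisense RNA, was unlisted in knockout 1 and at 22.1 in knockout 2, against 22.4 in wild type 1 and unlisted in wild type 2.

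Grb10, which encodes an adaptor protein of growth factor receptors, had a peak in every library, but its strong one was not in the list of knockout 1. Its coding-sequence peak had a fold of 64 in knockout 2 (percentile 99.1), against 70.9 in wild type 1 (97.4) and 78.6 in wild type 2 (99.1). In knockout 1 only a peak in the last part of the transcript was listed, with a fold of 6.41 at percentile 18.7. Grb10 and Dio3 were named after their values were seen, from the list of imprinted genes.

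**Figure D4:**
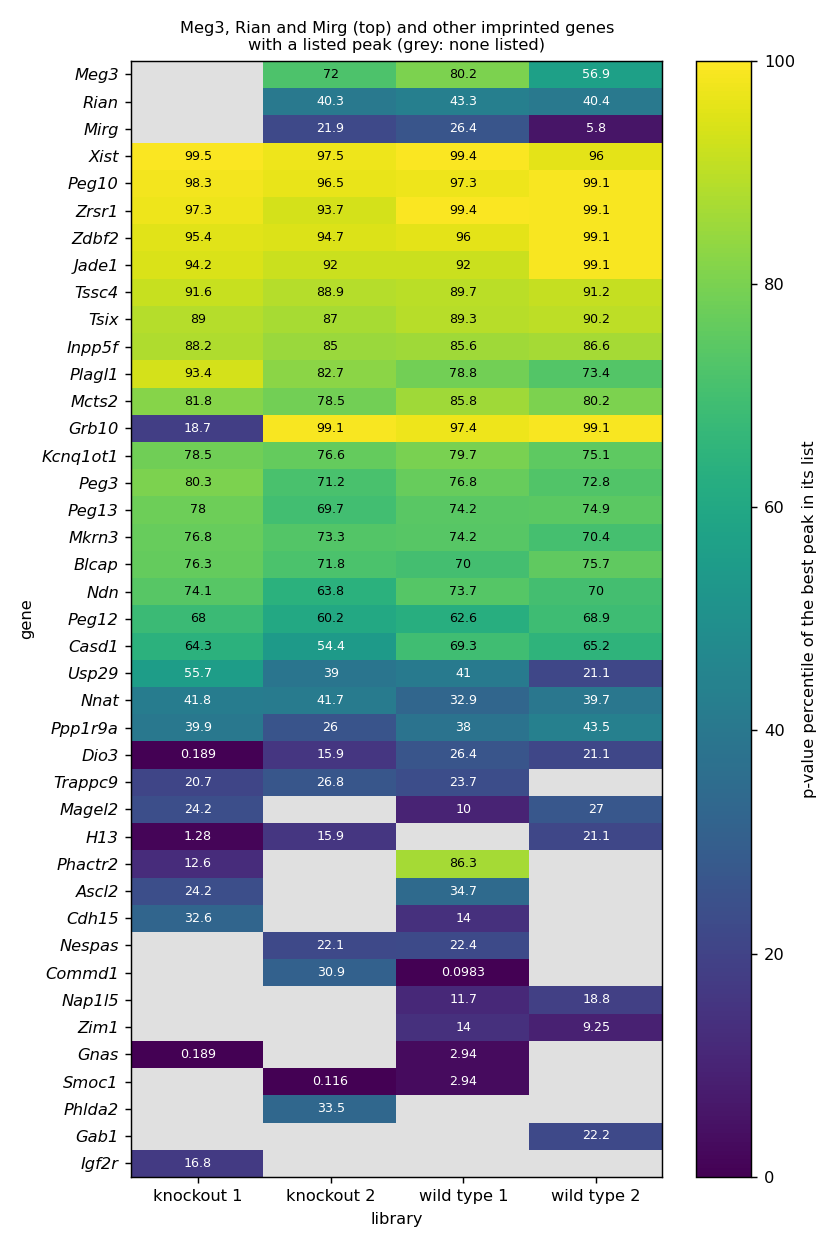
Percentile of the best peak by p-value, within its list, for Meg3, Rian and Mirg (top 3 rows) and the 38 other imprinted genes with a listed peak, sorted by the number of libraries and the mean percentile, with libraries as columns and grey where no peak is listed. The 3 members are grey in knockout 1 alone, and Grb10 stands at 18.7 there, against 97.4 or more in the other 3 libraries.

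In a list of 16 other long non-coding RNAs, 9 had a peak, and 6 of the 9 had one in all 4 libraries: Malat1, Neat1, Xist, Tsix, Kcnq1ot1 and Tug1. Of these, Xist, Tsix and Kcnq1ot1 are also among the 38 imprinted genes above. Firre, a nuclear RNA from the X chromosome, was missing from knockout 1 alone, like the members, with percentiles of 28.0 in knockout 2, 44.1 in wild type 1 and 23.2 in wild type 2. Gas5 was listed in wild type 1 alone, and Snhg14 in knockout 1 and wild type 1.

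The genes most like each member were found as those with the smallest mean absolute difference in best percentile over the 4 libraries, an unlisted gene counting as 0; predicted genes were left out. For Meg3 the nearest were Rgs12, a regulator of G-protein signalling (5.10 percentile points), Npat (5.24), Sertad3 (5.25), Zscan4a (5.43) and Taf11 (5.44). Rian was matched most closely by Diexf (1.05), then Ppip5k2 (2.15), Tmco3 (2.40), Schip1 (3.37) and Arhgap10 (3.45). Near Mirg were Nespas (2.50), Nrg1 (2.60), Pgf (3.33), Hspa1l (3.35) and Pcmtd2 (3.36). Of the 15, only Pgf is on chromosome 12. All 15 were unlisted in knockout 1, which the measure itself favours because the members count as 0 there, and Nespas and Pcmtd2 were unlisted in wild type 2 as well.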

How the data were processed

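The members, gene lists and measures were chosen with earlier results of these data known. Peaks were called per library by the authors, who deposited 1 list each; HISAT2, HOMER and mm10 are named in the submitters' processing notes, while the peak caller and the input are not given in the sources used. Per the file headers, each deposited peak carries a p-value, its log10 and that of an adjusted p-value (used here as a score for ranking) and a fold enrichment, a ratio. Deposited starts were raised by 1, since on the plus strand of wild type 1, for example, 20 starts lay 1 base before a RefSeq gene start and 2 on it. Peaks off the reference chromosomes (6 and 3 in knockout 1 and 2, 3 and 5 in wild type 1 and 2) were left out. Regions were joined on either strand. The joining was run on 3000 simulated regions, where 200 of 200 planted as missing from knockout 1 alone were recovered. These regions lay far apart with only small shifts between libraries, so the run checks the code alone. It does not test closely spaced peaks or peaks on opposite strands. Named genes were the members, listed genes with a peak, genes within 1 Mb and the 5 genes most like each member. The depth is unknown. Alternatives are given in the closing section. Python 3.11.15, numpy 2.4.6, pandas 2.3.3 and matplotlib 3.10.9 were used.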

Additional observations from a re-analysis of the deposited data

How the results depend on the processing

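With the stronger 50% of each list, 3 member peaks and 1 region missing from a single knockout library (the Meg3 3′ peak) were left, because the other Meg3 peaks and those of Rian and Mirg ranked below that limit. Leaving out each library in turn gave 0 to 3 member genes with a peak in all remaining libraries, 7 to 15 member peaks, 0 to 3 regions in all remaining libraries, 0 to 3 in the wild type alone, 0 to 4 in the knockout alone, and 0 to 4 missing from a single knockout library. Knockout 1 set the first: without it, 3 of 3 genes and 3 regions were in every remaining library, 0 regions were missing from a single knockout library and 4 were in knockout 2 alone. Without knockout 2, 7 peaks remained and 3 regions appeared as wild-type-only. The other imprinted genes with a peak in every library numbered 18 to 29 over all alternatives, against 23. Of the 56 values under alternatives that kept all libraries, 54 stayed within 1.5 times of those reported. Many of them could not move: knockout 1 had 0 peaks in this stretch, so counts that need a peak there stay at 0. By RefSeq span the 14 member peaks, against 15, include those of Gm26906 and none listed as Mirg. No paired analysis was possible because the submitters numbered the knockout libraries alone (wild type 1 and 2 are names in accession order) and no result comes from a test. Without a known depth, peaks that went unlisted for lack of reads cannot be picked out.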
